A study of Mus musculus with 36 samples.

Results

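This account follows the transcriptional response to TGFβ in KSIC_806 cells labelled WT for RREB1, a mouse pancreatic ductal adenocarcinoma (PDA) line. The comparison takes 4 RNA-seq libraries of the 36 samples in the series, chosen by their labels alone: 2 from cells given TGFβ (100 pM, 1.5 h) and 2 from cells given SB505124 (2.5 µM, 6 h), which blocks the kinase of the type I TGFβ receptor. All genes with a value of 10 or more in at least 2 of the 8 PDA libraries entered it, which were 13226 of the 18256 genes in the table. The series also holds 4 PDA libraries labelled RREB1 KO under the same treatments, and 4 libraries of CIY_organoid pancreatic epithelial cells under the same treatments, without doxycycline (dox) or with 1 µg/mL of it at plating. What dox switches on is not stated in the labels. KSIC_806 cells were grown in DMEM with 10% serum. The KO and organoid libraries serve below as points of comparison, and the other samples were not used here. The KO libraries also enter the gene filter and the estimate of spread behind the WT p-values. The PDA labels carry the mark S4, of unstated meaning, and every PDA group shares it. The 2 treatments differ in length as well as in the agent, so ligand, inhibitor and time cannot be told apart, and a "rise" or "fall" below means TGFβ relative to SB505124.

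TGFβ binds a pair of serine/threonine kinase receptors, and the type I receptor phosphorylates SMAD2 and SMAD3, which join SMAD4 and enter the nucleus to regulate genes together with partner transcription factors. Among the fastest targets are the pathway's own brakes, such as SMAD7, SKIL and PMEPA1. In pancreatic carcinoma cells TGFβ is best known for growth arrest, epithelial-mesenchymal transition (EMT), matrix production and, in some lines, apoptosis.

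Recovered depth ranged from 38728354 to 43636190 reads in the WT libraries. The 2 TGFβ libraries were close to each other, and the 2 SB505124 libraries stood apart. Over 9836 genes with a mean of at least 200, the SD of the log2 difference between replicates was 0.0707 under TGFβ and 0.277 under SB505124. No gene of that set differed by 0.5 or more on the log2 scale between the TGFβ libraries, against 639 genes (6.5%) between the SB505124 libraries. The AP-1 gene Junb, for example, had 1261 and 2969 under SB505124 and 16160 and 14000 under TGFβ. Counts and medians of the gene lists below are therefore also given, or said to move, without an SB505124 library where that moves them by more than 1.5 times (for counts, by at least 2 genes). Separate cultures are not stated for the replicates, and the p-values then reflect only how far these samples spread, which may be technical.

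Rreb1, the gene of the genotype labels, had 1458 and 1501 under SB505124 and 4293 and 4212 under TGFβ in the WT libraries (1.52 ± 0.08 SE, adjusted p = 1.12e-05). In the libraries labelled KO it had 2164 and 2195 under SB505124 and 2886 and 2560 under TGFβ, and the labels do not say where the allele was changed, so the transcript level does not check them.

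The libraries carried the transcripts of ductal epithelium. Summed over 12 ductal markers, among them keratins and Cdh1, values ran from 416000 to 500000 under SB505124 and from 467000 to 477000 under TGFβ. The markers were uneven, and 1 of the 12 stayed under 4 in every WT library. Under SB505124 Epcam had 86.3 and 68.4, and Sox9 had 89.9 and 101.2. The keratin genes of simple epithelium Krt8 and Krt19 did not pass the test, with Krt8 at 127200 and 168200 under SB505124 and 180800 and 176100 under TGFβ and Krt19 at 57590 and 79380 under SB505124 and 76030 and 73640 under TGFβ. The 6 acinar markers in the table summed to 140 to 187 in the WT libraries, nearly all of it Cela1, and the 4 islet markers to at most 3.7. Fibroblast markers summed to 77.5 to 102 under SB505124 and 391 to 435 under TGFβ, but this was Col1a1 and Pdgfra; 7 of the 10 markers stayed under 4 in every WT library, and Pdgfrb and Fap were at 0. The 8 immune markers summed to 138 to 160, with the pan-leukocyte gene Ptprc at 11.9 and 9.12 under SB505124 and 7.38 and 9.26 under TGFβ. Endothelial markers summed to 470 to 474 under SB505124 and 767 to 793 under TGFβ, mostly Flt1, and Pecam1 had 2 reads over the SB505124 libraries and 1 over the TGFβ libraries. The part of these markers in the results was not tested. In bulk RNA fewer cells of a type and less RNA per cell cannot be told apart.

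TGFβ and SB505124 separated the WT cells at 4887 genes (36.9% of those tested) at an adjusted p under 0.05, of which 2565 were higher (19.4%) and 2322 lower (17.6%). On the log2 scale the rises were larger than the falls: the median log2 fold change was 0.66 among genes called higher and −0.46 among genes called lower, and 725 rises against 302 falls reached 1 on the log2 scale. In normalized counts the order was the other way, with a summed gain of 2715000 over genes called higher and a summed change of −3337000 over genes called lower. Across all 13226 genes the median log2 fold change was 0.00159. In every gene given below with a rise or fall, both TGFβ libraries lay on the same side of both SB505124 libraries; values are normalized read counts, and folds are log2 fold changes with their standard error (SE). Changes of at least 4 on the log2 scale numbered 19 rises and 3 falls. Without TGFβ replicate 1 the calls numbered 2254, and without TGFβ replicate 2 they numbered 2286, in fits where 1 library stands for its group and is assumed to vary like the others. List counts shrink with them, as given below for the stress and growth lists; for the other lists only the SB505124 libraries are shown.

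The 12 largest rises included genes outside the usual TGFβ lists. Fam167a, whose product's function is poorly described (chromosome 14, 63436394 to 63465502, GRCm38.p6), stood at 10.1 and 3.65 under SB505124 and 328.7 and 368.4 under TGFβ (5.60 ± 0.41 SE, adjusted p = 6.44e-05). The LIM domain regulator gene Lmcd1 had 11.9 and 7.3 under SB505124 and 220.5 and 224 under TGFβ (4.43 ± 0.30 SE, adjusted p = 4.66e-05). Fgf18, encoding a secreted fibroblast growth factor, had 15.6 and 21 under SB505124 and 440.2 and 403.6 under TGFβ (4.47 ± 0.17 SE, adjusted p = 4.42e-06). Bmf, encoding a pro-apoptotic BH3-only protein, had 79.8 and 98.5 under SB505124 and 1636 and 1677 under TGFβ (4.21 ± 0.12 SE, adjusted p = 1.46e-06). Both TGFβ libraries lay at least an order of magnitude above both SB505124 libraries in each of these genes. The progestin receptor family gene Paqr9 had less alike values under the inhibitor, with 2.75 and 11.9 under SB505124 and 132.8 and 137 under TGFβ (4.29 ± 0.50 SE, adjusted p = 0.000631). The uncharacterized gene 2310007B03Rik had 61.5 and 54.7 under SB505124 and 1481 and 1509 under TGFβ (4.66 ± 0.15 SE, adjusted p = 2.29e-06). Among the 12 largest falls, the heparan sulfate sulfotransferase gene Hs3st1 had 1774 and 2230 under SB505124 and 179.5 and 128.7 under TGFβ (−3.70 ± 0.17 SE, adjusted p = 7.76e-06). The stromelysin gene Mmp10 had 145 and 99.4 under SB505124 and 8.2 and 5.55 under TGFβ (−3.96 ± 0.39 SE, adjusted p = 0.000267). Hs3st1 acts on heparan sulfate chains as they are made, and Mmp10 is a secreted protease of matrix proteins. The G protein regulator gene Rgs16 had 471.7 and 502.5 under SB505124 and 37.7 and 43.5 under TGFβ (−3.56 ± 0.15 SE, adjusted p = 5.8e-06). Adm2, an adrenomedullin family peptide gene, had 235.9 and 274.5 under SB505124 and 22.9 and 28.7 under TGFβ (−3.26 ± 0.22 SE, adjusted p = 4.7e-05). The plot of the largest changes by library shows that replicates of a group lay close together next to the distance between groups.

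**Figure D1:**
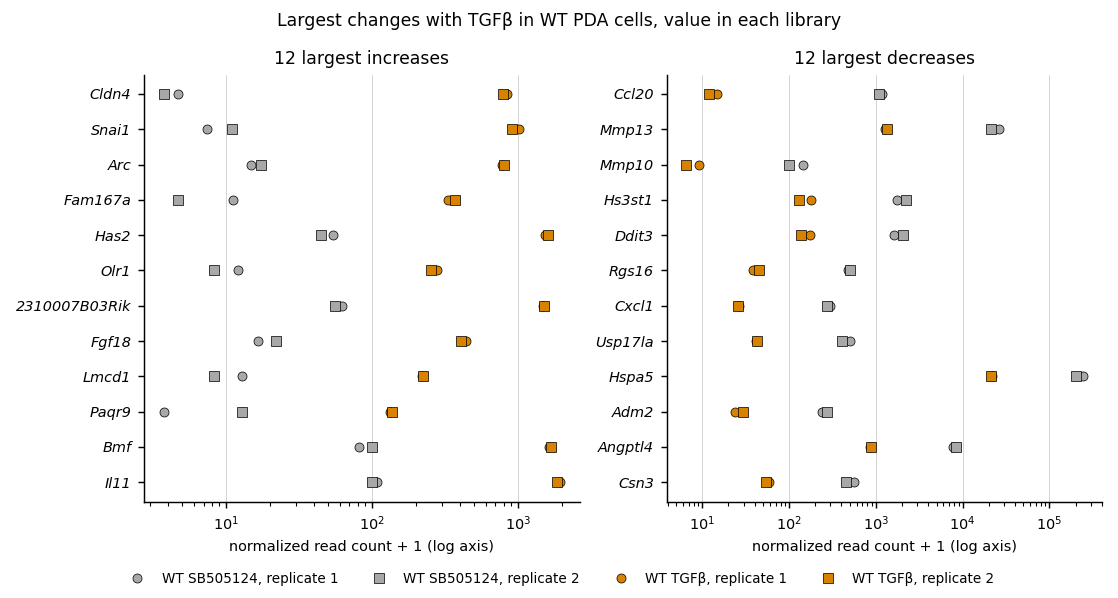
Normalized read count plus 1 on a log axis for the 12 largest increases and 12 largest decreases among called genes with a WT mean of at least 50. Grey points are the 2 SB505124 libraries and orange points the 2 TGFβ libraries; in every gene shown the groups do not overlap, from Cldn4 (about 3 to over 790) to Csn3.

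Ligand genes moved in both directions. Of 13 tested TGFβ family ligand genes, 4 rose and 3 fell, with a median of 0.03 (0.22 and 0.12 without SB505124 replicates 1 and 2), and the sign of that median turned after quantile normalization and without WT TGFβ replicate 1. Inhba, the activin A subunit gene, had 421.3 and 415 under SB505124 and 1143 and 1129 under TGFβ (1.44 ± 0.09 SE, adjusted p = 3.35e-05). The BMP gene Bmp8a had 13.8 and 18.2 under SB505124 and 71.3 and 66.7 under TGFβ (2.05 ± 0.19 SE, adjusted p = 0.00019). These 2 rose, whereas 2 other BMP genes fell. Bmp4 had 148.7 and 176 under SB505124 and 45.9 and 39.8 under TGFβ (−1.90 ± 0.14 SE, adjusted p = 6.44e-05). Bmp2 had 588.3 and 537.2 under SB505124 and 387.7 and 338.8 under TGFβ (−0.63 ± 0.13 SE, adjusted p = 0.00676); the call for Bmp2 was lost without WT TGFβ replicate 2, at −0.53. The TGFβ superfamily stress cytokine gene Gdf15 was nearly silent under TGFβ, with 12.8 and 51.1 under SB505124 and 1.64 and 0 under TGFβ (adjusted p = 0.00494). Among 13 latency proteins and antagonists 5 rose (8 without SB505124 replicate 2) and 2 fell. The BMP antagonist Nog had 4.59 and 2.74 under SB505124 and 56.6 and 42.6 under TGFβ (3.45 ± 0.41 SE, adjusted p = 0.000689). Grem1, another BMP antagonist, had 117.5 and 118.6 under SB505124 and 29.5 and 38.9 under TGFβ (−1.77 ± 0.18 SE, adjusted p = 0.00028). The activin antagonist Fst had 1494 and 1394 under SB505124 and 601.6 and 554.5 under TGFβ (−1.32 ± 0.08 SE, adjusted p = 2.86e-05).

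Of 10 tested receptor genes 5 rose, 1 fell and 4 did not pass the test, with a median of 0.67 (0.43 without SB505124 replicate 1). The type I receptor gene Tgfbr1 had 1820 and 1562 under SB505124 and 3444 and 3234 under TGFβ (0.98 ± 0.10 SE, adjusted p = 0.000288). The type II receptor gene Tgfbr2, the single fall, had 7103 and 6545 under SB505124 and 5639 and 5747 under TGFβ (−0.26 ± 0.06 SE, adjusted p = 0.0171). That small difference was no longer called without WT SB505124 replicate 1 (−0.20) or either TGFβ library (−0.25 and −0.27), or in the fit of the 4 WT libraries alone. The BMP receptor genes Acvr1 and Bmpr2 rose more, Acvr1 with 1739 and 1531 under SB505124 and 4224 and 4294 under TGFβ (1.38 ± 0.09 SE, adjusted p = 2.91e-05). Bmpr2 had 1529 and 1369 under SB505124 and 3500 and 3315 under TGFβ (1.23 ± 0.09 SE, adjusted p = 7.34e-05). These 2 receptors carry BMP signals to another set of SMADs. Of the 5 SMADs that carry the signal, Smad3 had 6010 and 5905 under SB505124 and 10210 and 10440 under TGFβ (0.79 ± 0.06 SE, adjusted p = 5.93e-05). Smad4 had 2600 and 2441 under SB505124 and 3378 and 3558 under TGFβ (0.46 ± 0.07 SE, adjusted p = 0.00251); Smad1, Smad2 and Smad5 did not pass the test, and they are named here, outside the rule, to complete the group.

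The brakes of the pathway rose broadly: of 15 inhibitors, corepressors and ubiquitin ligases 9 rose and none fell, with a median of 0.62. Pmepa1, which sequesters receptor-activated SMADs, had 3200 and 3844 under SB505124 and 17990 and 16990 under TGFβ (2.32 ± 0.12 SE, adjusted p = 1.38e-05). Ski, the corepressor related to Skil, had 1356 and 1511 under SB505124 and 4366 and 4259 under TGFβ (1.59 ± 0.10 SE, adjusted p = 3.48e-05). Ldlrad4, a Pmepa1 relative, had 108.3 and 111.3 under SB505124 and 382.8 and 377.7 under TGFβ (1.78 ± 0.13 SE, adjusted p = 7.02e-05). In every one of these the TGFβ libraries lay above the SB505124 libraries without overlap. Classical targets followed, with 16 of 20 higher and 2 lower (median 1.71). The early response factor Klf10 had 1357 and 1229 under SB505124 and 6880 and 6988 under TGFβ (2.42 ± 0.07 SE, adjusted p = 1.46e-06). The transcriptional repressor Bhlhe40 had 3000 and 2903 under SB505124 and 19780 and 20210 under TGFβ (2.76 ± 0.07 SE, adjusted p = 9.69e-07). The 2 that fell were Hbegf and the CDK inhibitor gene Cdkn2b, the latter with 1700 and 1647 under SB505124 and 1063 and 1114 under TGFβ (−0.62 ± 0.07 SE, adjusted p = 0.000631).

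Genes best known as BMP targets also rose: 7 of 8 ID and BMP target genes were higher and none lower, with a median of 1.68. Id1, an inhibitor of helix-loop-helix factors, had 709.4 and 914.8 under SB505124 and 1761 and 1627 under TGFβ (1.07 ± 0.19 SE, adjusted p = 0.00475). Id3 had 483.7 and 759.7 under SB505124 and 1937 and 1806 under TGFβ (1.62 ± 0.27 SE, adjusted p = 0.00325). The DLX genes encode homeobox factors that act downstream of BMP in development. Dlx2 had 3.67 and 6.38 under SB505124 and 89.3 and 74 under TGFβ (3.81 ± 0.31 SE, adjusted p = 0.000105). Dlx3 had 50.5 and 55.6 under SB505124 and 543.4 and 514.7 under TGFβ (3.29 ± 0.29 SE, adjusted p = 0.000145). Both TGFβ libraries lay above both SB505124 libraries in all 4 genes, and in Id1 and Id3 the SB505124 libraries were the less alike pair.

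Immediate early genes, AP-1 subunits included, moved both ways. Of 14 AP-1 family genes 7 rose and 2 fell (median 0.45), Fosb with 101 and 108.5 under SB505124 and 790.2 and 766.5 under TGFβ (2.88 ± 0.11 SE, adjusted p = 4.62e-06). Fos had 103.7 and 114 under SB505124 and 420.5 and 375.8 under TGFβ (1.86 ± 0.11 SE, adjusted p = 2.86e-05). Jun had 1130 and 1466 under SB505124 and 5243 and 4812 under TGFβ (1.96 ± 0.17 SE, adjusted p = 0.000127). These 3 are the classical growth-factor-induced subunits. The stress-induced member Atf3 had 465.3 and 486.1 under SB505124 and 245.1 and 244.4 under TGFβ (−0.96 ± 0.08 SE, adjusted p = 0.000142). Of 21 other immediate early genes 5 rose and 10 fell (median −0.30). Egr3 had 80.8 and 79.3 under SB505124 and 279.5 and 351.8 under TGFβ (1.96 ± 0.15 SE, adjusted p = 6.6e-05). The polo-like kinase gene Plk2 had 5707 and 5066 under SB505124 and 2144 and 2171 under TGFβ (−1.32 ± 0.08 SE, adjusted p = 2.92e-05). The shear- and statin-responsive factor Klf2 had 172.5 and 218 under SB505124 and 31.1 and 31.5 under TGFβ (−2.59 ± 0.19 SE, adjusted p = 6.6e-05).

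Some ligands of the ERBB receptors fell. Of 12 tested EGF family genes 5 fell and 2 rose. The 5 were the ligand genes Areg, Ereg, Hbegf, Btc and Nrg1, the 2 rises were receptors, and the ligand genes Tgfa, Epgn, Nrg4 and Egf did not pass the test. Btc (−0.55) was not called without TGFβ replicate 2 (−0.53), nor Nrg1 (−0.41) without TGFβ replicate 1 (−0.38). Amphiregulin, Areg, had 13500 and 11250 under SB505124 and 2366 and 2408 under TGFβ (−2.37 ± 0.10 SE, adjusted p = 5.81e-06). Epiregulin, Ereg, had 10090 and 8263 under SB505124 and 2094 and 2141 under TGFβ (−2.11 ± 0.11 SE, adjusted p = 1.24e-05). The kinase-impaired receptor gene Erbb3 had 117.5 and 143.2 under SB505124 and 621.3 and 597.1 under TGFβ (2.22 ± 0.12 SE, adjusted p = 1.73e-05). Of 19 ERK feedback genes 8 fell and 1 rose. Spry1, a receptor tyrosine kinase antagonist, had 499.3 and 574.6 under SB505124 and 103.3 and 100.9 under TGFβ (−2.38 ± 0.13 SE, adjusted p = 1.4e-05). Spry4 had 820.5 and 798.9 under SB505124 and 257.4 and 273.1 under TGFβ (−1.61 ± 0.08 SE, adjusted p = 1.16e-05). The single rise was Spred2, also a brake on RAS-ERK signalling, with 982 and 1029 under SB505124 and 2874 and 2857 under TGFβ (1.51 ± 0.07 SE, adjusted p = 6.24e-06).

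Of 18 genes for chemokines, colony-stimulating factors and alarmins 9 fell and 2 rose (median −0.32). The neutrophil chemoattractants Cxcl1 and Cxcl5 fell, Cxcl1 with 295.5 and 271.8 under SB505124 and 25.4 and 25 under TGFβ (−3.44 ± 0.24 SE, adjusted p = 4.63e-05). Cxcl5 had 978.3 and 950.3 under SB505124 and 201.6 and 168.5 under TGFβ (−2.38 ± 0.10 SE, adjusted p = 5.8e-06). Csf1, the macrophage growth factor gene, ran the other way, with 1219 and 1300 under SB505124 and 4983 and 5032 under TGFβ (1.99 ± 0.07 SE, adjusted p = 3.47e-06). Of 16 NF-κB factors and feedback genes 4 fell (7 without SB505124 replicate 1) and 2 rose, and the 37.5% called is near the 36.9% of all genes. The ubiquitin-editing enzyme gene Tnfaip3 had 4207 and 3962 under SB505124 and 722.9 and 697 under TGFβ (−2.52 ± 0.08 SE, adjusted p = 1.78e-06). The IκB family gene Nfkbiz had 1823 and 1691 under SB505124 and 370.5 and 359.2 under TGFβ (−2.26 ± 0.08 SE, adjusted p = 2.47e-06). Both encode brakes or modulators of NF-κB that NF-κB itself induces. Ptgs2, encoding cyclooxygenase-2, had 42370 and 35820 under SB505124 and 7039 and 6862 under TGFβ (−2.49 ± 0.09 SE, adjusted p = 4.28e-06). In the IL-6 family 6 of 14 genes rose and 1 fell: the STAT-induced kinase gene Pim1 had 375.4 and 408.6 under SB505124 and 2833 and 2763 under TGFβ (2.83 ± 0.09 SE, adjusted p = 2.13e-06). The receptor gene Il6ra had 175.3 and 172.4 under SB505124 and 848.4 and 930.3 under TGFβ (2.35 ± 0.10 SE, adjusted p = 6.66e-06). The feedback gene Cish had 21.1 and 34.7 under SB505124 and 466.4 and 432.3 under TGFβ (4.0 ± 0.25 SE, adjusted p = 2.91e-05).

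Of 14 angiogenic and vasoactive factors 8 rose and 2 fell (median 0.55). Vegfa had 2604 and 2983 under SB505124 and 12130 and 11920 under TGFβ (2.11 ± 0.09 SE, adjusted p = 5.75e-06). The endothelin gene Edn2 had 12.8 and 14.6 under SB505124 and 118.9 and 100 under TGFβ (2.90 ± 0.18 SE, adjusted p = 2.95e-05). Angptl4, an inhibitor of lipoprotein lipase, had 7839 and 8393 under SB505124 and 863.9 and 884.9 under TGFβ (−3.21 ± 0.07 SE, adjusted p = 7.84e-07). Of 13 Notch pathway genes 7 rose and none fell (median 0.95, or 0.60 without SB505124 replicate 1), among them the ligand gene Jag1 with 4244 and 3864 under SB505124 and 17770 and 17930 under TGFβ (2.14 ± 0.07 SE, adjusted p = 1.7e-06). Dll4 had 46.8 and 48.3 under SB505124 and 418.9 and 469.3 under TGFβ (3.19 ± 0.18 SE, adjusted p = 1.76e-05). The Notch target Hes1 did not pass the test, at 1231 and 1463 under SB505124 and 1605 and 1381 under TGFβ. A target of the HEY family was among the 7 rises (1.86 ± 0.33 SE, adjusted p = 0.00413). It is also counted among the ID and BMP target genes. Of 8 WNT ligand genes 5 rose (3 without SB505124 replicate 1) and 1 fell, with Wnt9a at 31.2 and 38.3 under SB505124 and 524.6 and 493.4 under TGFβ (3.84 ± 0.17 SE, adjusted p = 7.3e-06). The β-catenin target Axin2 was low throughout, at 15.6 and 19.1 under SB505124 and 40.2 and 40.7 under TGFβ (1.18 ± 0.36 SE, adjusted p = 0.0364). This call was lost without any 1 of the 4 WT libraries (1.04 to 1.32), and at pseudocount 0.1 (1.22), after quantile normalization (1.0), with the replicate block (1.18) and in DESeq2 (1.22). The stem cell receptor gene Lgr5 had 2.75 and 4.56 under SB505124 and 27.1 and 24.1 under TGFβ (2.54 ± 0.54 SE, adjusted p = 0.00938), lost without either TGFβ library (2.46 and 2.62) and at pseudocount 0.1 (2.81).

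Of 9 EMT transcription factor genes 4 rose and 2 fell, the falls being Snai2, with 410.2 and 323.8 under SB505124 and 84.4 and 74 under TGFβ (−2.19 ± 0.18 SE, adjusted p = 0.000111). Twist1 had 976.5 and 950.3 under SB505124 and 589.3 and 564.7 under TGFβ (−0.74 ± 0.09 SE, adjusted p = 0.000676). Of 9 tested genes listed as epithelial guardian factors 6 rose, Sox4 (values below) among them, and 1 fell (median 1.29). The count is of list members and not of a shared role. The ETS factor genes Elf3 and Ehf rose, Elf3 with 969.2 and 1056 under SB505124 and 2801 and 2872 under TGFβ (1.49 ± 0.08 SE, adjusted p = 1.78e-05). Ehf had 74.3 and 52.9 under SB505124 and 227.9 and 253.6 under TGFβ (1.92 ± 0.17 SE, adjusted p = 0.000173). Klf5, a driver of the epithelial state, was the fall, with 1935 and 2052 under SB505124 and 1197 and 1218 under TGFβ (−0.72 ± 0.07 SE, adjusted p = 0.000201). Of 22 junction genes 12 rose and 2 fell (median 0.38), among them Epcam with 86.3 and 68.4 under SB505124 and 248.4 and 225.9 under TGFβ (1.61 ± 0.14 SE, adjusted p = 0.000135). Cdh1 and Cdh2, the E- and N-cadherin genes, rose by similar amounts, Cdh1 with 16780 and 15980 under SB505124 and 21730 and 21770 under TGFβ (0.41 ± 0.06 SE, adjusted p = 0.00149). Cdh2 had 3557 and 3201 under SB505124 and 4789 and 4919 under TGFβ (0.52 ± 0.07 SE, adjusted p = 0.00136).

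Of 15 tested pancreatic and foregut transcription factors 7 rose and 2 fell, against 19.4% of all genes called higher and 17.6% called lower. The ductal factor Sox9 had 89.9 and 101.2 under SB505124 and 451.6 and 424 under TGFβ (2.19 ± 0.25 SE, adjusted p = 0.000581). Pdx1, a pancreatic progenitor factor, had 480.9 and 614.7 under SB505124 and 1128 and 1011 under TGFβ (0.97 ± 0.19 SE, adjusted p = 0.00661); without WT TGFβ replicate 1 it was not called (0.89). The pioneer factor Foxa2 had 2117 and 2273 under SB505124 and 786.9 and 733.1 under TGFβ (−1.53 ± 0.11 SE, adjusted p = 4.7e-05). Its relative Foxa3 had 18.4 and 19.1 under SB505124 and 195.9 and 172.2 under TGFβ (3.22 ± 0.18 SE, adjusted p = 1.94e-05). Sox17, an endoderm factor, was among the larger falls, with 759 and 851.8 under SB505124 and 94.3 and 89.8 under TGFβ (−3.11 ± 0.13 SE, adjusted p = 5.59e-06). Sox4 had 1412 and 1768 under SB505124 and 4498 and 4258 under TGFβ (1.47 ± 0.14 SE, adjusted p = 0.000213).

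Of 13 genes of hyaluronan metabolism 7 rose and none fell (median 1.32). Beside Has2, the synthase gene Has3 had 515.8 and 485.2 under SB505124 and 3916 and 4054 under TGFβ (2.99 ± 0.09 SE, adjusted p = 1.7e-06). The hyaluronidase gene Hyal1 had 124.8 and 131.3 under SB505124 and 558.2 and 586 under TGFβ (2.15 ± 0.10 SE, adjusted p = 7.84e-06). Tnfaip6, which links hyaluronan to heavy chains, had 0.918 and 0 under SB505124 and 41 and 38.9 under TGFβ (adjusted p = 6.57e-05). Of 25 collagen and laminin chain genes 13 rose and none fell (median 0.57, or 0.33 and 0.89 without SB505124 replicates 1 and 2), among them the laminin-332 chain gene Lama3, with 152.3 and 172.4 under SB505124 and 404.9 and 406.4 under TGFβ (1.32 ± 0.10 SE, adjusted p = 6.44e-05). The anchoring fibril collagen gene Col7a1 had 1764 and 2730 under SB505124 and 6539 and 5998 under TGFβ (1.51 ± 0.19 SE, adjusted p = 0.000869). Of 16 integrin subunit genes 9 rose and 2 fell. The fibronectin receptor subunit Itga5 had 3332 and 3744 under SB505124 and 10570 and 10690 under TGFβ (1.59 ± 0.08 SE, adjusted p = 1.31e-05). Itgb6, part of a TGFβ-activating integrin, had 330.4 and 246.2 under SB505124 and 927 and 930.3 under TGFβ (1.70 ± 0.14 SE, adjusted p = 0.00012). Of 14 matrix crosslinking genes 4 rose and none fell (28.6% called). Of 21 matrix protease and plasminogen genes 6 rose and 5 fell (52.4% called, against 36.9% of all genes). Among 21 actin and contractile genes 11 rose (7 without SB505124 replicate 1) and 1 fell. The tropomyosin gene Tpm1 did not pass the test, at 20870 and 20350 under SB505124 and 20700 and 20340 under TGFβ. Of 21 YAP/TAZ/TEAD genes 8 rose and 6 fell, Ankrd1 with 12430 and 11220 under SB505124 and 1716 and 1638 under TGFβ (−2.82 ± 0.08 SE, adjusted p = 1.32e-06). The tissue factor gene F3 had 8951 and 7856 under SB505124 and 33260 and 33330 under TGFβ (1.99 ± 0.08 SE, adjusted p = 4.59e-06).

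Regulators of cell number moved without one direction. In the BCL2 family 4 of 15 genes rose and 4 fell: beside Bmf, the BH3-only gene Bcl2l11, which encodes BIM, had 750.7 and 651.2 under SB505124 and 1996 and 2013 under TGFβ (1.52 ± 0.10 SE, adjusted p = 3.11e-05). The survival gene Bcl2l1, which encodes BCL-XL, had 5755 and 6835 under SB505124 and 3833 and 3816 under TGFβ (−0.71 ± 0.09 SE, adjusted p = 0.00106). The CDK inhibitor gene Cdkn1a had 3681 and 3639 under SB505124 and 5795 and 5697 under TGFβ (0.65 ± 0.06 SE, adjusted p = 0.000189). BIM promotes and BCL-XL blocks mitochondrial apoptosis, and Cdkn1a encodes the cell cycle inhibitor p21. The MYC antagonist gene Mxd1 had 546.1 and 611.1 under SB505124 and 1936 and 1877 under TGFβ (1.72 ± 0.08 SE, adjusted p = 9.43e-06). The MYC family gene Mycn had 5.51 and 12.8 under SB505124 and 112.3 and 94.4 under TGFβ (3.46 ± 0.49 SE, adjusted p = 0.00151). Among 38 DNA replication genes 16 rose, by small amounts (median 0.24), and none fell. Pole had 3090 and 2886 under SB505124 and 4666 and 4762 under TGFβ (0.66 ± 0.07 SE, adjusted p = 0.000344). Mcm4 had 8160 and 7510 under SB505124 and 11470 and 11760 under TGFβ (0.57 ± 0.08 SE, adjusted p = 0.0015).

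Genes for protein folding in the endoplasmic reticulum (ER), and for the stress response that controls it, mostly fell. The unfolded protein response senses misfolded protein through ATF6, IRE1 (Ern1) and PERK (Eif2ak3). It raises ER chaperones through a promoter element called ERSE, and amino acid genes through ATF4 and elements called CARE. Of 158 tested genes in 6 lists covering folding, degradation, ER to Golgi transport, stress factors, ATF4 amino acid genes and aminoacyl-tRNA synthetases, 127 fell and 7 rose (median −0.62). Without WT SB505124 replicate 1 the counts were 121 and 7, and without replicate 2 they were 126 and 7. Without TGFβ replicate 1 they were 97 and 3, and without TGFβ replicate 2 they were 99 and 3. These counts stand against 17.6% of all genes called lower.

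The chaperones had the lowest median of the 6 lists. Of 25 ER chaperone and folding enzyme genes 23 fell and none rose, with a median of −1.36. Their summed share of all counts in a library was 2.25% and 1.98% under SB505124 and 0.706% and 0.704% under TGFβ. Hspa5 (chromosome 2, 34772090 to 34776529), encoding the ER chaperone BiP, had 241100 and 204900 under SB505124 and 21860 and 21480 under TGFβ, a 10.3-fold difference (−3.36 ± 0.09 SE, adjusted p = 1.46e-06). Hsp90b1, the ER paralogue of HSP90, had 144800 and 115200 under SB505124 and 32570 and 32310 under TGFβ (−1.99 ± 0.12 SE, adjusted p = 2.9e-05). Creld2 had 13340 and 14300 under SB505124 and 1657 and 1762 under TGFβ (−3.01 ± 0.07 SE, adjusted p = 7.84e-07). BiP and its partners bind unfolded chains in the ER lumen. The nucleotide exchange factor gene Hyou1 had 28920 and 29450 under SB505124 and 6369 and 6553 under TGFβ (−2.18 ± 0.05 SE, adjusted p = 1.11e-06). The secreted stress protein gene Manf had 18090 and 16140 under SB505124 and 3063 and 3106 under TGFβ (−2.47 ± 0.08 SE, adjusted p = 2.47e-06). In each of them the 2 TGFβ libraries lay far below both SB505124 libraries. Of 33 genes of ER-associated degradation and translocation 28 fell and none rose (median −0.59), among them Herpud1 with 8934 and 9538 under SB505124 and 3991 and 4091 under TGFβ (−1.19 ± 0.06 SE, adjusted p = 1.38e-05). Sel1l had 10310 and 9168 under SB505124 and 4180 and 4273 under TGFβ (−1.20 ± 0.08 SE, adjusted p = 4.25e-05). Of 34 ER to Golgi transport genes 21 fell and 3 rose (median −0.32).

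The promoter windows of the fallen chaperone genes are shown because many hold the complete ERSE, searched as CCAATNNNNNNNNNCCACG on both strands of the 300 bases that run from 250 before to 50 after the RefSeq start site (build GRCm38.p6). Promoters matched 21 of the 25 chaperone genes, and 8 of these 21 (38.1%) held it. Of 12188 protein-coding genes tested on the chromosomes the sequence table covers, 10082 had a promoter, and 19 of these held it (0.188%). Of these 19 genes 11 fell and 2 rose. The 9 genes with a window are among these 11, so the counts are not separate. Their lists are the ER chaperones and ER-associated degradation. In these lists 23 of 25 and 28 of 33 genes fell, with or without the element. Genes named in this and the CARE paragraph beyond the naming rule were chosen because their promoters hold the element, after their values were known. Promoters were also searched for AP-1, SMAD and E2F elements, which are not described here. The windows below are from the gene's strand, 5′ to 3′, with the CCAAT and CCACG blocks, or their reverse complements where the element lies on the opposite strand, in capitals. The ninth gene, Syvn1, encodes the ubiquitin ligase HRD1 of ER-associated degradation. All 9 genes fell, by log2 fold changes of −3.36 (Hspa5), −3.01 (Creld2), −2.0 (Ero1lb), −1.99 (Hsp90b1), −1.49 (Syvn1), −1.41 (Dnajc3), −1.37 (Pdia6), −1.36 (Calr) and −0.62 (Canx). The element of Hspa5 lies 65 bases before the start site, and Hsp90b1 holds 2 elements, 1 on each strand.
Hspa5, chr2:34772013-34772055, plus strand: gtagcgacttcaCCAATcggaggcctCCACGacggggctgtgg
Creld2, chr15:88819508-88819550, plus strand: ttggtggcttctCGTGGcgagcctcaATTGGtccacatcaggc
Ero1lb, chr13:12565670-12565712, plus strand: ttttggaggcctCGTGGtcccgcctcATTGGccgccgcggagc
Hsp90b1, chr10:86705521-86705668, minus strand: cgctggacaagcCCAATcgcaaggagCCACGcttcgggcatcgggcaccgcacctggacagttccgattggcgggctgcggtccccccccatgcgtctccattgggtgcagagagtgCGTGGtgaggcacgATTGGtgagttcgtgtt
Syvn1, chr19:6046520-6046562, plus strand: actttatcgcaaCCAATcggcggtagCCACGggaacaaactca
Dnajc3, chr14:118937815-118937857, plus strand: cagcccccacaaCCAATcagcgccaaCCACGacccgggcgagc
Pdia6, chr12:17266479-17266521, plus strand: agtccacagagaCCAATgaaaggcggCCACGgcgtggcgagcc
Calr, chr8:84847063-84847105, minus strand: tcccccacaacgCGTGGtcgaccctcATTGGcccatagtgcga
Canx, chr11:50325788-50325830, minus strand: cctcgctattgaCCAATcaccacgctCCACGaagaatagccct

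Genes of the ATF4 arm fell too, with a few exceptions. Of 20 stress sensors and factors 14 fell and 3 rose (median −0.80). Atf4 had 22550 and 22220 under SB505124 and 8105 and 8287 under TGFβ (−1.45 ± 0.05 SE, adjusted p = 3.99e-06). Its relative Atf5 had 3061 and 3538 under SB505124 and 753.3 and 752.6 under TGFβ (−2.13 ± 0.12 SE, adjusted p = 2.31e-05). The phosphatase subunit gene Ppp1r15a, which ends the translation block, had 1946 and 2360 under SB505124 and 469.7 and 457.3 under TGFβ (−2.21 ± 0.12 SE, adjusted p = 1.38e-05). ATF4 and ATF5 are translated preferentially when the kinase PERK is active. Xbp1, the factor made by IRE1 splicing, had 5879 and 5087 under SB505124 and 3370 and 3456 under TGFβ (−0.68 ± 0.09 SE, adjusted p = 0.000855). Against this trend Ddit4, an mTORC1 inhibitor gene, had 797.5 and 901.1 under SB505124 and 5037 and 4907 under TGFβ (2.55 ± 0.10 SE, adjusted p = 4.96e-06), and the sensor genes Ern1 and Eif2ak3 were the other 2 rises, that of Ern1 not called without either TGFβ library (0.33 and 0.38). Of 25 ATF4 amino acid genes 23 fell and 1 rose (median −1.0). The asparagine synthetase gene Asns had 13630 and 11710 under SB505124 and 5025 and 5002 under TGFβ (−1.33 ± 0.09 SE, adjusted p = 4.25e-05). The mitochondrial folate enzyme gene Mthfd2 had 10280 and 10270 under SB505124 and 3748 and 3943 under TGFβ (−1.42 ± 0.06 SE, adjusted p = 4.96e-06). The amino acid transporter subunit gene Slc3a2 had 28620 and 31490 under SB505124 and 12250 and 12420 under TGFβ (−1.28 ± 0.07 SE, adjusted p = 1.76e-05). Of 21 aminoacyl-tRNA synthetase genes 18 fell and none rose (median −0.43). Cars had 7777 and 7690 under SB505124 and 4244 and 4313 under TGFβ (−0.85 ± 0.06 SE, adjusted p = 4.49e-05).

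A CARE element (TGATGCAA, both strands) stood in the promoters of 12 genes of the stress factor, amino acid and synthetase lists, and all 12 fell. In these lists 14 of 20, 23 of 25 and 18 of 21 genes fell with or without the element. Promoters matched 18 of the 20 stress factor genes, and 3 of these (16.7%) held it, against 74 of the 10082 genes (0.734%). The other 2 lists had promoters for 19 of 25 and 14 of 21 genes, under 80%, so their shares are not given. Of all 74 genes 27 fell and 9 rose. The 12 genes are among the 74, so the 2 counts are not separate. Windows are shown, with the element in capitals, for the 6 genes with the largest falls among the 8 whose window lies before the start site; the other 2 are Got1 (−0.36) and Vldlr (−0.45). The 6 are Chac1, a glutathione-degrading enzyme gene (−2.62), the cystine transporter gene Slc7a11 (−1.22), Atf3 (−0.96), Nupr1 (−0.92), the proline synthesis gene Pycr1 (−0.86) and the alanyl-tRNA synthetase gene Aars (−0.77). Slc7a11 holds 2 elements, and Pycr1 was not called without either TGFβ library (−0.86 and −0.85).
Chac1, chr2:119351033-119351072, plus strand: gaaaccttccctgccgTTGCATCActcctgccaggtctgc
Slc7a11, chr3:50443637-50443695, minus strand: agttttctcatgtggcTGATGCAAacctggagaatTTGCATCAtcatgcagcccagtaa
Atf3, chr1:191183420-191183459, minus strand: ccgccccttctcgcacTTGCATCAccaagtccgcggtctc
Nupr1, chr7:126625557-126625596, minus strand: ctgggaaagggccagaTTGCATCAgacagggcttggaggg
Pycr1, chr11:120643828-120643867, minus strand: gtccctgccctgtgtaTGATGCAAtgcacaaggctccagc
Aars, chr8:111033714-111033753, plus strand: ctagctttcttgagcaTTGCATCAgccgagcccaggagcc

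The plot of the stress genes gives their values in each WT library, in which the 2 groups are separated for all 24 genes.

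**Figure D2:**
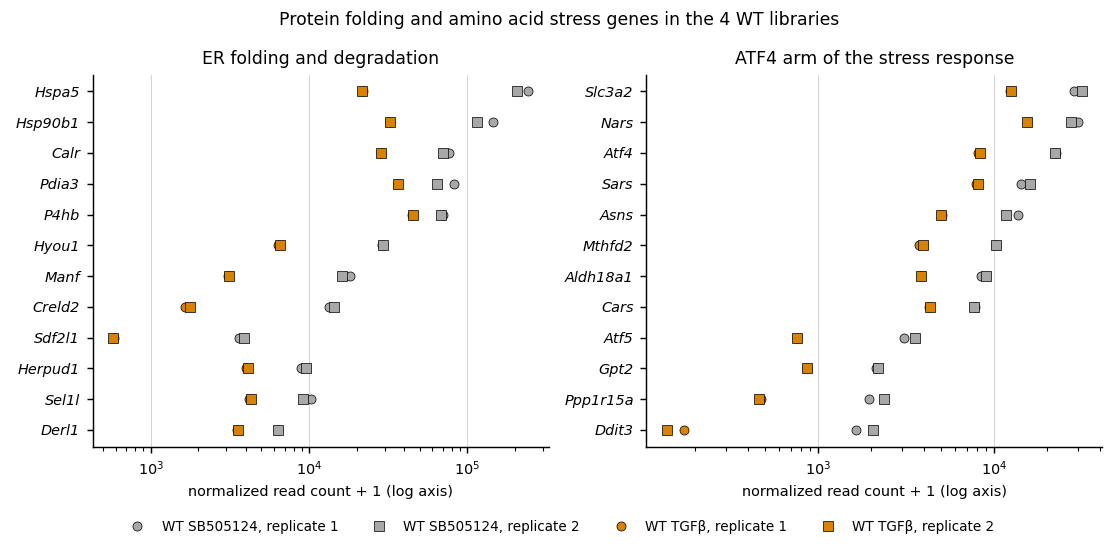
Normalized read count plus 1 on a log axis for 12 ER folding and degradation genes and 12 genes of the ATF4 arm, with grey points for the 2 SB505124 libraries and orange points for the 2 TGFβ libraries. Every orange point lies to the left of both grey points of its gene, by the widest distance for Hspa5 (10.3-fold in means) and Ddit3.

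Other machinery of growth fell by smaller amounts. Of 34 ribosome biogenesis genes 21 fell and none rose (median −0.38). Nop56, a snoRNP core gene, had 14110 and 13260 under SB505124 and 8887 and 9048 under TGFβ (−0.61 ± 0.06 SE, adjusted p = 0.000314). Cytosolic ribosomal protein genes fell in 19 of 51 cases (median −0.21, or −0.10 without SB505124 replicate 2), oxidative phosphorylation subunits in 22 of 43 (median −0.24) and proteasome subunits in 19 of 31 (median −0.29), and in none of these lists did a gene rise. Over these 4 lists 81 of 159 genes fell. This count was 69 and 78 without either SB505124 library, 40 in a fit of the 4 WT libraries alone, and 13 without either TGFβ library. The 45S ribosomal RNA precursor Rn45s, a multicopy transcript whose reads cannot be assigned to 1 copy, had 299200 and 366600 under SB505124 and 251200 and 248500 under TGFβ (−0.41 ± 0.10 SE, adjusted p = 0.0163). This was not called without either TGFβ library (−0.41 and −0.40), in the fit of the 4 WT libraries alone, with no filter on low values, or after quantile normalization. Of 24 cholesterol genes 9 fell and 2 rose (45.8% called), and of 22 fatty acid and triglyceride genes 2 fell and 5 rose (31.8% called), against 36.9% of all genes. The synthesis gene Fdps had 7477 and 7555 under SB505124 and 4335 and 4482 under TGFβ (−0.77 ± 0.06 SE, adjusted p = 0.000104). The feedback gene Insig1, a rise, had 3265 and 2860 under SB505124 and 7334 and 7574 under TGFβ (1.29 ± 0.08 SE, adjusted p = 2.92e-05). Of 30 glycolysis and hypoxia genes 11 rose and 3 fell, with hexokinase 2, Hk2, at 5759 and 5729 under SB505124 and 12160 and 12210 under TGFβ (1.08 ± 0.05 SE, adjusted p = 1.23e-05). Of 26 histone-modifying enzyme genes 8 rose and none fell (30.8% called, under the 36.9% of all genes), among them the H3K27 demethylase gene Kdm6b with 858.1 and 1229 under SB505124 and 6701 and 6458 under TGFβ (2.68 ± 0.19 SE, adjusted p = 5.97e-05). Of 18 clock genes 7 rose and 5 fell, including Per1 with 423.1 and 606.5 under SB505124 and 868 and 915.5 under TGFβ (0.81 ± 0.17 SE, adjusted p = 0.00939). This call was lost without either TGFβ library (0.85 and 0.78). Ciart, a clock repressor gene, had 291.8 and 309.2 under SB505124 and 75.4 and 87.9 under TGFβ (−1.87 ± 0.13 SE, adjusted p = 4.24e-05). The plot of list members sets these groups side by side: the ER and ATF4 lists lie almost wholly to the left of 0 and the SMAD feedback, hyaluronan and Notch lists mostly to the right.

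**Figure D3:**
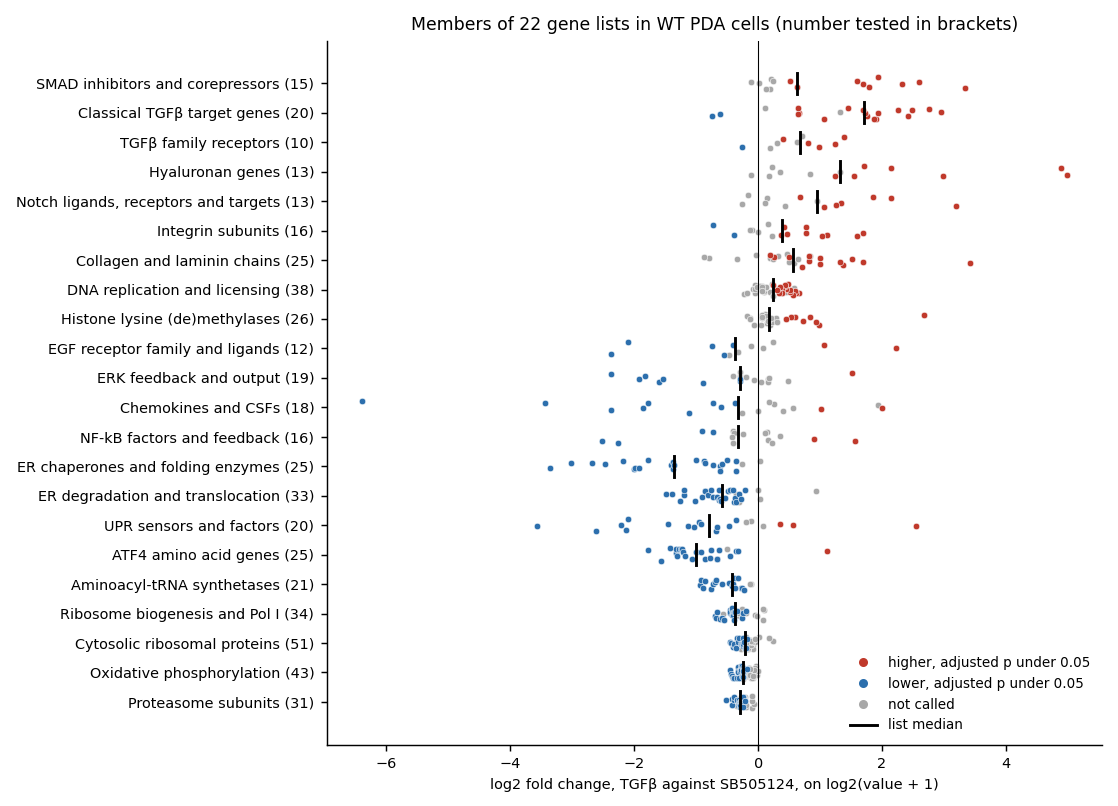
Log2 fold change, TGFβ against SB505124, of each tested member of 22 gene lists, 1 point per gene (red, called higher; blue, called lower; grey, not called), with the list median as a black bar. Medians run from −1.36 for ER chaperones to 1.71 for classical TGFβ targets.

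The share of genes called in each direction varied with gene length. Annotated span, from start to end of the gene with its introns, was known for 13171 of the 13226 genes. Of 1732 genes shorter than 5 kb, 7.68% rose and 24.3% fell, and of 586 genes of 200 kb or more, 43.9% rose and 7.51% fell. In between, the share called higher rose with each class of span. Genes called higher had a median span of 48.4 kb and genes called lower 14.4 kb, against 22.5 kb for all genes. Ribosomal protein genes, with a median span of 3.55 kb, and the 4 growth lists together, with 6.93 kb, are among the short genes.

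The 2 SB505124 libraries also differed by span, so the size of this trend moved with the library. From the shortest to the longest class, the median log2 difference between TGFβ replicate 1 and SB505124 replicate 1 went from −0.07 to 0.28, and that against SB505124 replicate 2 from −0.25 to 0.38. Between the SB505124 libraries (replicate 1 minus 2) it went from −0.12 to 0.12, and between the TGFβ libraries from 0.01 to −0.01. Without WT SB505124 replicate 1 the share called higher went from 6.35% to 44.0%, and without replicate 2 from 9.58% to 39.8%. In the PDA cells labelled KO the median log2 fold change was 0.03 in the shortest class and 0.01 in the longest. The KO replicates differed by span too. Replicate 1 minus 2 went from 0.12 to −0.09 between the KO TGFβ libraries, and from −0.05 to 0.03 between the KO SB505124 libraries. In the organoids, whose libraries are independent of the PDA libraries, the median log2 ratio went from −0.12 to 0.18 without dox and from −0.10 to 0.18 with it. The part of the replicate difference in the trend was not tested. The plot of span classes shows both sides, the calls and the medians by pair of libraries.

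**Figure D4:**
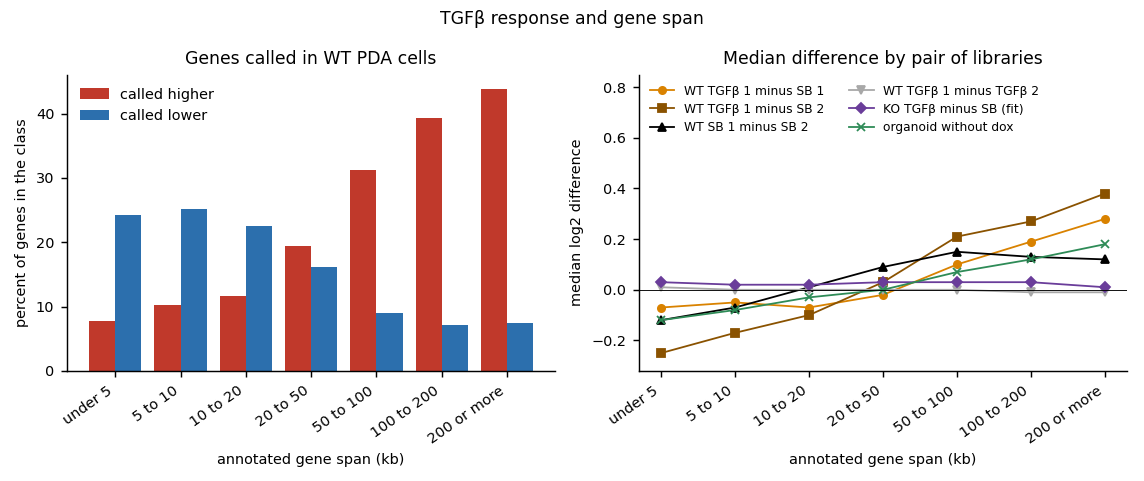
Left, percent of genes called higher (red) or lower (blue) in WT cells by class of annotated gene span in kb. Right, the median log2 difference in each class for pairs of WT libraries, the fitted change in cells labelled KO and the organoid ratio without dox; the share called higher climbs from 7.68% to 43.9%, and the 2 SB505124 replicates differ from −0.12 to 0.12 across the classes.

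Some genes were all but absent in one condition. Over both libraries of a group, 139 tested genes had at most 3 reads under SB505124, of which 29 rose and 3 fell. Another 103 had at most 3 reads under TGFβ, of which 15 fell. These genes were picked for low reads in 1 group, and that choice set the direction of most calls. The 3 falls start from at most 3 reads, at the floor. Over all genes 19.4% were called higher and 17.6% lower. Egr2, an activity-regulated zinc finger gene, had 0.918 and 0.912 under SB505124 and 33.6 and 35.2 under TGFβ (adjusted p = 0.000141). The niacin receptor gene Hcar2 had 0.918 and 0.912 under SB505124 and 39.3 and 25 under TGFβ. The SOX factor gene Sox7 had 1.84 and 0 under SB505124 and 29.5 and 18.5 under TGFβ. In these genes the inhibitor libraries hold at most a read or a pair of reads each, so no fold is given. The ligand gene Wnt10b had 0.918 and 0.912 under SB505124 and 27.1 and 16.7 under TGFβ, and the collagen gene Col15a1 had 0 and 1.82 under SB505124 and 17.2 and 16.7 under TGFβ. In the other direction the neurexin gene Nrxn3 had 15.6 and 15.5 under SB505124 and 0.82 and 0.926 under TGFβ (adjusted p = 0.000292). Gdap1l1 had no read under TGFβ and 13 under SB505124, at least 4.54-fold lower at a floor of 3 counts over the group. With so few WT reads, Gdap1l1 passed the gene filter with the help of the KO libraries. Of the 13226 tested genes 12891 had a value of 10 or more in a WT library, and the others passed through the KO libraries alone.

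The organoid libraries, with 1 library per condition and no test, moved in the WT direction at a majority of the WT-called genes. Of the 2414 genes called higher in WT that were measured there (mean of at least 10), 71.1% had a higher value under TGFβ without dox and 67.3% with dox, and of 2232 genes called lower, 66.5% and 71.1% had a lower value. Over all 12270 genes of the PDA test that were measured in the organoids, 49.6% and 46.8% were higher. The lists differed in this. The 25 ER chaperones had a median log2 ratio of −0.04 without dox and −0.01 with it, beside −1.36 in WT PDA cells, and Hspa5 had −0.08 and −0.30. The 25 ATF4 amino acid genes had −0.47 and −0.51 beside −1.0. Pmepa1 was higher in the organoids by 3.04 and 4.34. Vegfa rose in WT PDA cells and had organoid ratios of −0.35 and −0.04, and Fst, which fell there, had 2.34 and 2.47. The organoid and PDA tables were normalized separately, so only the ratios within a table are set side by side.

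The KO replicates were uneven as well. Over the same 9836 genes, the SD of their log2 difference was 0.253 under TGFβ and 0.134 under SB505124. Differences of 0.5 or more numbered 550 genes (5.59%) and 55 genes (0.559%). KO SB505124 replicate 1 had 20410770 reads, against 41690156 to 44504338 in the other KO libraries. Against the cells labelled KO, the difference between the 2 responses was tested directly and was called at 2886 genes (21.8%). That count was 764 and 827 without WT TGFβ replicates 1 and 2, and 940 and 1188 without KO SB505124 replicates 1 and 2. Among the 4887 genes called in WT, the WT change lay further in its own direction at 1466, less far at 337, and the difference was not called at 3084; these WT libraries also chose the genes, so the counts are a description. As examples chosen after their values were seen, the activin gene Inhba (1.44 in WT, −0.58 in KO), Vegfa (2.11 and −0.46), Kdm6b (2.68 and 0.19), Itga5 (1.59 and −0.10) and Sox9 (2.19 and 0.06) had log2 fold changes in WT that were not matched in KO (adjusted p of the difference from 0.000201 to 0.00751). For the stress lists the called differences mostly ran the other way. The WT change was the more positive at 13 of 25 ER chaperones, 14 of 20 stress factors and 15 of 25 ATF4 amino acid genes. It was the more negative at 1, 0 and 0. The other 3 lists had fewer called differences. The WT change was the more positive at 9 of 33 ER degradation and translocation genes, 8 of 34 ER to Golgi genes and 8 of 21 synthetases. It was the more negative at 1, 1 and 0. Over all genes the difference was called at 21.8%, in either direction. For Hspa5 the changes were −3.36 in WT and −4.74 in KO (adjusted p of the difference 0.00119). Labels give no separate lines or clones within a genotype, so genotype and line cannot be told apart. The plot of list medians shows the 4 settings together.

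**Figure D5:**
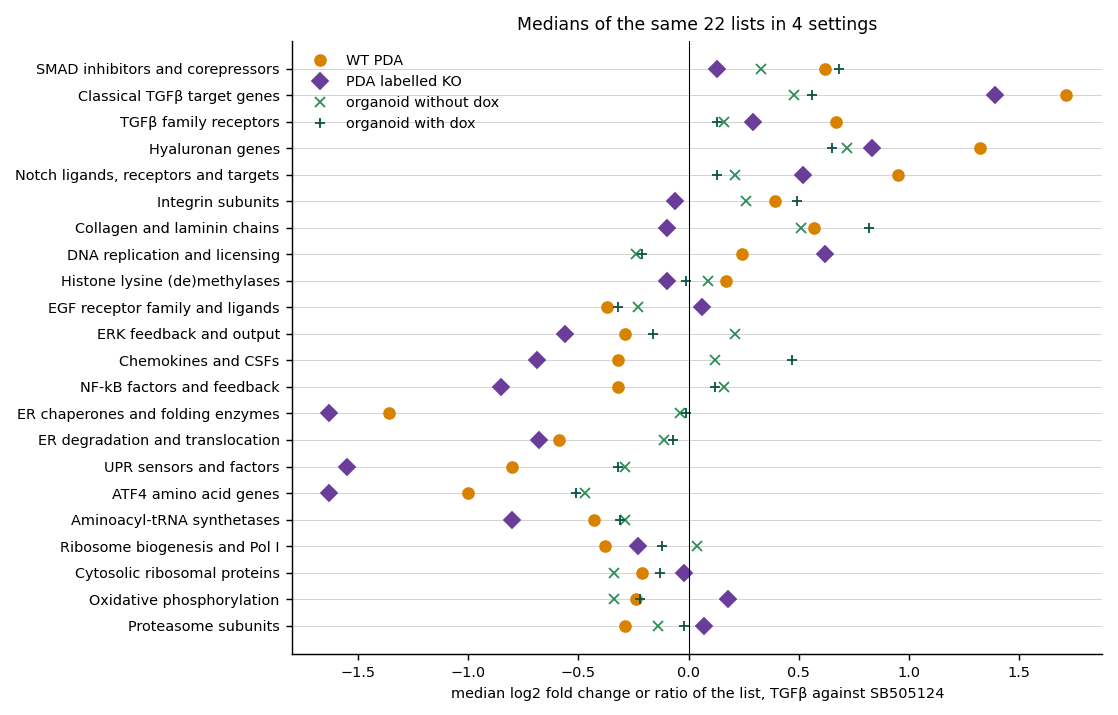
Median log2 fold change (PDA cells) or log2 ratio (organoids), TGFβ against SB505124, of 22 gene lists in WT PDA cells, PDA cells labelled KO and organoids without and with dox. Classical TGFβ targets have positive medians in all 4 settings, while the ER chaperone median is −1.36 in WT cells and −0.04 and −0.01 in the organoids.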

How the data were processed

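RNA-seq libraries were made from high-quality RNA with a TruSeq RNA v2 kit, which does not mark strand, and read from a single end, per the labels' protocols. Reads from overlapping antisense genes therefore cannot be told apart. Tools listed without roles, per the submitters' processing notes, were HOMER, HTSeq 0.6.1p1, DESeq2 3.4, Bowtie2 and FastQC 0.11.5, and the genome was mm10. The authors deposited a normalized read count per gene, treated here as a signal. In each of the 8 PDA columns 100% of values were whole multiples of a single factor (tolerance 0.001), which gave back whole reads, 38728354 to 43636190 per WT library.

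limma 3.58.1 in R 4.3.3 was fitted to log2(value + 1) in 4 groups of 2, for genes with a value of 10 or more in at least 2 of 8 libraries. Calls used an adjusted p (Benjamini-Hochberg over 13226 genes, two-sided) under 0.05. Fold changes are on that scale, which understates changes of low genes. edgeR 4.0.16 and DESeq2 1.42.0 were run on the recovered counts as alternatives. The limma script was tested on simulated data with the same spread in every library. Such data do not have the uneven replicates seen here, so this test does not cover them. Organoid values are log2((TGFβ + 1)/(SB505124 + 1)) from 1 library per condition, for genes with a mean of at least 10.

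Genes were named by rule: the 12 largest rises and falls among called genes with a WT mean of at least 50 and no overlap, the 8 largest gains and losses in value, up to 5 called members per list by smallest adjusted p with marked members, up to 8 genes with 3 or fewer reads in a condition, and Rreb1, Smad4 and Cdkn2a as checks of the line. Not every gene the rule selects is described, and some items it selects are not reported here. Members, lists and motifs were chosen with earlier results of these data known. Promoters come from RefSeq (GRCm38.p6).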

Additional observations from a re-analysis of the deposited data

Results flagged for a closer look

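Of the 24 largest WT changes (12 rises and 12 falls), 13 genes had a response that differed from that of cells labelled KO by the test of the difference (limma, 8 libraries). That difference was called at 21.8% of all genes. Among the 4887 genes called in WT, it was called with the WT change further at 1466 and less far at 337. The WT minus KO difference on the log2 scale was 5.6 for Arc (adjusted p = 0.00158), 2.51 for Il11 (adjusted p = 0.00156), 1.96 for Fgf18 (adjusted p = 0.00265), 1.34 for Olr1 (adjusted p = 0.0151), 1.24 for Cldn4 (adjusted p = 0.037), 1.01 for Bmf (adjusted p = 0.00779) and 0.90 for 2310007B03Rik (adjusted p = 0.0257). These 7 genes rose in WT cells. All 24 were chosen for their WT change, on the WT libraries that also enter this test, so the choice itself favours a larger WT change. The difference was not called for the other 11 genes, among them Snai1 (2.28, adjusted p = 0.0805), Fam167a (0.78, adjusted p = 0.382) and Ccl20 (−0.21, adjusted p = 0.48).

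The other 6 genes fell in WT cells, and the WT fall was the smaller. Their differences were 2.59 for Adm2 (adjusted p = 0.00257), 2.40 for Rgs16 (adjusted p = 0.000944), 1.69 for Ddit3 (adjusted p = 0.0022), 1.53 for Mmp13 (adjusted p = 0.00181), 1.38 for Hspa5 (adjusted p = 0.00119) and 0.89 for Csn3 (adjusted p = 0.0286). Adm2 changed by −3.26 in WT and −5.85 in KO, and Rgs16 by −3.56 and −5.96.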

How the results depend on the processing

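Over 18 other settings, 148 of the 159 called genes named in the text were called in every setting run, and no called gene changed sign. Of genes that did not pass the test, Tpm1 changed sign after rescaling to the same total (0.03), quantile normalization (0.11), and without WT SB505124 replicate 1 (0.01) or WT TGFβ replicate 2 (0.01), Krt19 without WT SB505124 replicate 1 (−0.09, against 0.38 without replicate 2), Nrg4 without WT TGFβ replicate 2 (0.06, against −0.31 without replicate 1) and Smad2 without WT SB505124 replicate 2 (−0.13, against 0.23 without replicate 1). Tpm1 was −0.02 without WT SB505124 replicate 2. Leaving out each library in turn gave 2254 to 5183 genes called, 1306 to 2686 higher and 921 to 2584 lower; the lowest counts came without a WT TGFβ library. The difference between WT and KO was called at 764 to 3881 genes in the same way. Deviations of same-numbered libraries did not show a shared pairing. Over genes they correlated at −0.0751 between the WT groups. Over the 6 pairs of groups the range was −0.506 (WT SB505124 with KO TGFβ) to 0.144 (WT SB505124 with KO SB505124). The −0.506 joins the 2 groups with the least alike replicates, whose deviations were thus related, with opposite sign. The part of this relation in the difference between WT and KO was not tested. With the replicate block, 3779 genes were called in WT (2098 higher, 1681 lower) and the difference between WT and KO at 1596. edgeR called 5171 genes and DESeq2 4254. With 2 libraries per group, and the inhibitor pair less alike, small changes are the least certain. Genes named in the text were mostly picked for large changes or small adjusted p in the main fit. That choice favours their calls in the other settings, so they do not stand for all called genes.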
